A study of Mus musculus with 5 samples.

Results

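AP-1 and its companion immediate early genes were examined in stromal cells of the femoral bone marrow that descend from 2 fetal cell populations. The set holds 10 genes, of 30046 features in the counts file. They are the 4 Fos subunits (*Fos*, *Fosb*, *Fosl1* and *Fosl2*), the 3 Jun subunits (*Jun*, *Junb* and *Jund*) and 3 other immediate early genes (*Atf3*, *Egr1* and *Ier2*), chosen by name and looked up by their Ensembl identifiers. All 10 were found, and all 10 passed the expression filter of the test.

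AP-1 is a transcription factor built from pairs of basic leucine zipper proteins. Jun proteins can pair with each other or with a Fos protein, whereas Fos proteins need a Jun partner, so the subunits that a cell makes set which dimers it can form. The genes for most subunits respond within minutes to growth factors, serum, stress or mechanical load, without new protein synthesis, and tissue dissociation with enzymes at body temperature is also known to raise their transcripts. In bone, Fos is needed for osteoclasts, and Fosl1, Fosl2, Fosb and Junb act in the osteoblast lineage.

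The cells were sorted by FACS as Cxcl12-GFP(high) tdTomato+ cells from femurs of mice at postnatal day 21, after the growth plates had been removed and the bones digested with Liberase and Pronase. Every mouse carried a GFP allele at *Cxcl12*, the R26R-tdTomato reporter and a single tamoxifen pulse at embryonic day 12.5. In the 3 Dlx5CE-E12.5 libraries the pulse activated a creER under the control of *Dlx5* (Cxcl12 GFP/+; Dlx5 CreER/+; R26R tdTomato/+), which marks fetal perichondrial cells and what they become. In the 2 Fgfr3CE-E12.5 libraries it activated Fgfr3-iCreER (Cxcl12 GFP/+; Fgfr3-iCreER; R26R tdTomato/+), which marks fetal chondrocytes and, by the study's counts, few perichondrial cells. A library therefore holds descendants of cells with an active driver at the pulse, pooled from littermates of a genotype on a mixed background. The comparison asks whether GFP(high) stromal cells of the same age and gate differ between the lineages. The study places descendants of fetal perichondrial cells mainly in diaphyseal marrow, and those of fetal chondrocytes mainly in metaphyseal marrow. Fetal origin and place in the marrow therefore cannot be told apart here, and the part of place was not tested.

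Total counts ranged from 22035650 to 32563758 in the Dlx5CE-E12.5 libraries and from 56355203 to 58166285 in the Fgfr3CE-E12.5 libraries. Per the study's methods, the libraries of each lineage were sequenced on a different instrument with a different read length and layout, and under that description sequencing and lineage cannot be told apart. The sample labels used here name no instrument. The gate was visible in the RNA: *Cxcl12*, the chemokine that defines these reticular cells, had 22364 to 23577 normalized CPM (counts scaled to library size by TMM) in the Dlx5CE-E12.5 libraries, and 8488 and 6104 in the Fgfr3CE-E12.5 libraries. Transcripts of other marrow cells were present as well. The 10 pan-leukocyte markers summed to 394 to 485 normalized CPM in the Dlx5CE-E12.5 libraries, against 1268 and 2705 in Fgfr3CE-E12.5 replicates 2 and 3. The 10 neutrophil markers summed to 2670 to 3333 against 7469 and 18457, and all 10 markers of each list were called higher in Fgfr3CE-E12.5 cells. Without Fgfr3CE-E12.5 replicate 3, 8 pan-leukocyte and 5 neutrophil markers were called, and the median log2 fold change of the neutrophil markers went from 1.78 to 1.21. In bulk samples like these, fewer cells of a type and less RNA per cell cannot be told apart.

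Promoter sequence was available for 7 of the 10 genes in a RefSeq table (GRCm38.p6, windows from 250 bases before the annotated start to 50 after it). No entry was found for *Fosl1*, *Egr1* and *Ier2*. The 4 members with the best known inducible promoters are shown, because some of the sites that make AP-1 genes respond to signals, and to AP-1 itself, sit close to their starts. Each line gives the 250 bases before the start, 5′ to 3′ on the strand of the gene, and capitals mark matches to the core of a cyclic AMP response element, an AP-1-like site and a TATA box, whose letters follow the sequences.
Fos (chr12:85473640-85473889, plus strand): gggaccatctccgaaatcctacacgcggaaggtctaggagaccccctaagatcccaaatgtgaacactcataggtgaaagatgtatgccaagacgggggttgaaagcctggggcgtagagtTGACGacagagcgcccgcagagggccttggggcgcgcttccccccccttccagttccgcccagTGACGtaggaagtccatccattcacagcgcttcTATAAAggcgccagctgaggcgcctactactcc
Fosb (chr7:19310046-19310295, minus strand): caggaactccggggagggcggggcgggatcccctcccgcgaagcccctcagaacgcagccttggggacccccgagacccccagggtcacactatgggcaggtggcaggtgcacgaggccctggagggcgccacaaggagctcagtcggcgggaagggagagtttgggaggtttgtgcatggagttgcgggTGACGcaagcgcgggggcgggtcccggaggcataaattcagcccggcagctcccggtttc
Jun (chr4:95052223-95052472, minus strand): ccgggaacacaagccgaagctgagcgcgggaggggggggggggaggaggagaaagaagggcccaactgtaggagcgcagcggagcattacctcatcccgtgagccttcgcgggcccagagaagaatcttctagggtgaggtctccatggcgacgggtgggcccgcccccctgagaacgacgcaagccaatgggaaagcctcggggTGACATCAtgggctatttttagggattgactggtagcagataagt
Junb (chr8:84978749-84978998, minus strand): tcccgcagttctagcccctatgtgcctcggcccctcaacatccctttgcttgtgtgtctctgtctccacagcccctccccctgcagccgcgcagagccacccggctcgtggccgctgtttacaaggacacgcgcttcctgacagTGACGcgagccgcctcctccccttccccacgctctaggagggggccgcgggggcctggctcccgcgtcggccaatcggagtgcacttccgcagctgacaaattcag

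Searched on both strands over the whole window, the response element core TGACG occurred in 4 of the 7 members with a window (*Fos*, *Fosb*, *Junb* and *Atf3*) and in 20.8% of all 32851 windows of the table. In *Fos* it began 129 and 66 bases before the start, in *Fosb* 60 bases and in *Junb* 106 bases before it. The AP-1-like site TGACATCA occurred only in *Jun* among the 7, 45 bases before the start, and in 3.62% of all windows. The TATA box TATAAA was found in *Fos*, 33 bases before the start, and in *Junb*, against 8.32% of all windows. In *Junb* it began at the RefSeq start itself, beyond the stretch printed. That start lies upstream of the outermost GENCODE start of *Junb*. The canonical AP-1 site TGANTCA (7.81% of windows) and the CArG box bound by SRF (1.63%) were matched in none of the 7 windows. This says only that those letters are not within the windows, and sites farther upstream were not searched. The RefSeq start is the outermost GENCODE start given with the values for *Fos* and *Jun*, lies close to it for *Fosb* and *Junb*, and lies farther from it for *Jund*, *Fosl2* and *Atf3*, whose windows are not printed. A match is a description of the sequence only.

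Of the 10 genes, 2 were called higher in Fgfr3CE-E12.5 cells (*Fosl1* and *Jund*) and 4 higher in Dlx5CE-E12.5 cells (*Fosb*, *Fosl2*, *Jun* and *Junb*). The other 4 were not called (*Fos*, *Atf3*, *Egr1* and *Ier2*). *Fosl1* passed the expression filter only through the Fgfr3CE-E12.5 libraries, where it was higher. Genes on the opposite strand overlap 57.2% of the exon bases of *Fosl1* and 52.6% of those of *Jund*. A gene was called when its adjusted p was under 0.05 and its absolute log2 fold change was above 1, with the log2 fold change given as Fgfr3CE-E12.5 over Dlx5CE-E12.5. Over all 10093 genes tested, 16.4% were called higher in Fgfr3CE-E12.5 cells and 13.1% higher in Dlx5CE-E12.5 cells. The libraries of the lineages did not overlap for 8 of the 10 genes, beside 68.9% of all genes tested. The median log2 fold change over all genes tested was 0.01. The study describes the libraries as biological replicates with cells of littermates pooled by genotype. It gives 4 mice pooled for each lineage, without saying whether this holds for each library. The labels do not tie libraries to animals. The p-values measure the spread between these libraries, which may not be the spread between animals.

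**Figure D1:**
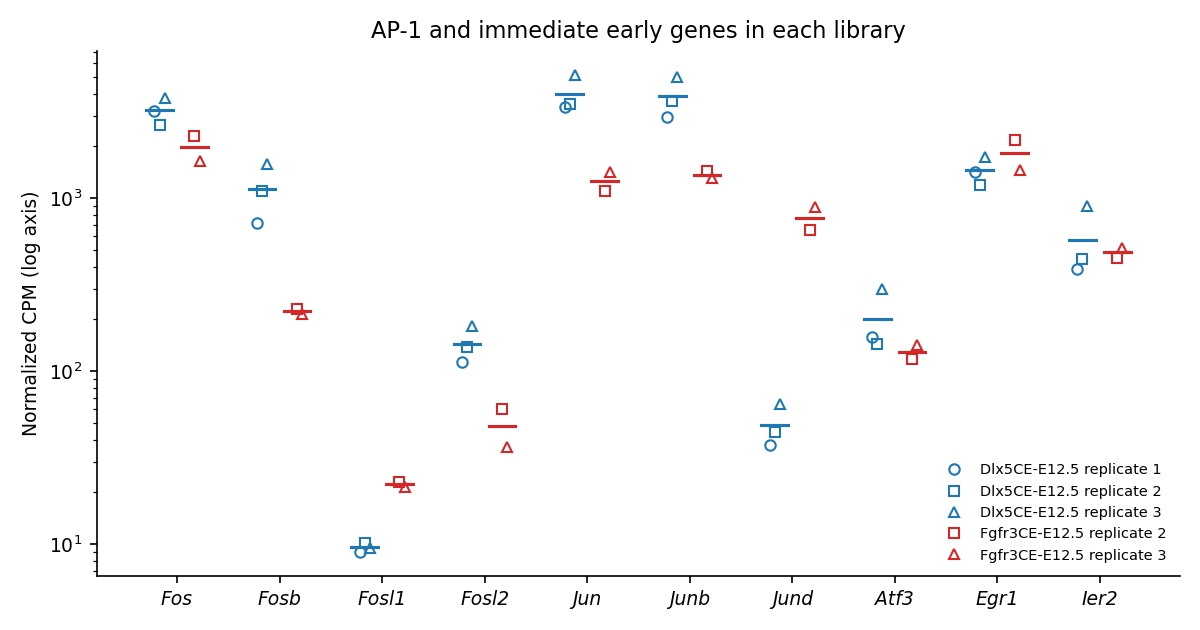
Normalized CPM (log axis) of each of the 10 genes in each library, with circles, squares and triangles for replicates 1, 2 and 3, Dlx5CE-E12.5 in blue and Fgfr3CE-E12.5 in red, and a bar at the mean of each lineage. *Jund* and *Fosl1* sit higher in the red libraries, *Fosb*, *Fosl2*, *Jun* and *Junb* sit higher in the blue ones, and the symbols of *Egr1* and *Ier2* overlap.

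Among the Fos subunits, *Fosb* differed most. *Fosb* (chr7:19302696-19310051, minus strand, 4 exons), which encodes a strongly activating Fos protein and, by splicing, a truncated form, had 719.9, 1096 and 1584 normalized CPM in Dlx5CE-E12.5 replicates 1 to 3, and 230.1 and 215 in Fgfr3CE-E12.5 replicates 2 and 3. The lowest Dlx5CE-E12.5 library was thus well above both Fgfr3CE-E12.5 libraries. The means were 1133 ± 433 (SD, n = 3) and 222 ± 10.8 (SD, n = 2), with a log2 fold change of -2.35 (SE 0.34) and an adjusted p of 0.00161, a 5.10-fold higher level in Dlx5CE-E12.5 cells. Gene counts do not separate the full and truncated forms.

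*Fosl2* (chr5:32135801-32157842, plus strand, 4 exons), which encodes Fra-2, a Fos protein without the strong activation domain, followed the same direction at a lower level. Its normalized CPM were 113, 137 and 183 in Dlx5CE-E12.5 cells and 60.4 and 36.4 in Fgfr3CE-E12.5 cells. The lineages did not overlap, but both Fgfr3CE-E12.5 libraries differed clearly from each other. The log2 fold change was -1.58 (SE 0.29, adjusted p = 0.00432), or 2.99-fold higher in Dlx5CE-E12.5 cells, and it moved between -1.26 and -1.99 when Fgfr3CE-E12.5 replicate 3 or replicate 2 was left out.

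*Fosl1* (chr19:5447547-5455946, plus strand, 4 exons), which encodes Fra-1, was the scarcest member in Dlx5CE-E12.5 cells and the only Fos subunit called in the opposite direction. It had 9.03, 10.2 and 9.50 normalized CPM in Dlx5CE-E12.5 cells (205 to 263 raw counts) and 23.0 and 21.3 in Fgfr3CE-E12.5 cells (1286 and 1344 raw counts). The spread within each lineage was small next to the gap. The log2 fold change was 1.21 (SE 0.19, adjusted p = 0.00236), a 2.32-fold higher level in Fgfr3CE-E12.5 cells. The gene passed the filter of 10 CPM in 2 libraries only through the Fgfr3CE-E12.5 libraries. Of its exon bases, 57.2% lie over *Ccdc85b* on the opposite strand, and the strand setting of the counting is not given in the sources used here, so reads of the overlapping genes may not have been separated. *Ccdc85b* itself had 33.0, 28.0 and 33.3 normalized CPM against 23.6 and 30.1 (log2 fold change -0.12, adjusted p = 0.634). When the trend of fold change on GC content over all genes was removed, *Fosl1* was at 0.93 (adjusted p = 0.00704), under the fold threshold.

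*Fos* (chr12:85473890-85477273, plus strand, 4 exons), the prototype of the family, was abundant in every library. It had 3175, 2650.0 and 3803 normalized CPM in Dlx5CE-E12.5 cells and 2291 and 1646 in Fgfr3CE-E12.5 cells, so that the lineages did not overlap. Its log2 fold change of -0.71 (SE 0.24, 95% confidence interval -1.27 to -0.14) had an adjusted p of 0.0441, but the change was below the fold threshold and the gene was not called. The adjusted p also rose above 0.05 without any 1 of the Dlx5CE-E12.5 libraries (0.0575 to 0.137) and without Fgfr3CE-E12.5 replicate 3 (0.165).

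The Jun subunits showed the sharpest contrast within a family. *Jun* (chr4:95049034-95052222, minus strand), a gene of 1 exon whose product is the main activating partner in AP-1, had 3349, 3496 and 5174 normalized CPM in Dlx5CE-E12.5 cells and 1097 and 1412 in Fgfr3CE-E12.5 cells. Each Dlx5CE-E12.5 library was above both Fgfr3CE-E12.5 libraries. The means of 4006 ± 1014 and 1255 ± 222 gave a log2 fold change of -1.67 (SE 0.26, adjusted p = 0.0023), or 3.19-fold higher in Dlx5CE-E12.5 cells. An antisense gene, *Junos*, covers 7.28% of its exon bases and had at most 66 counts in any library.

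*Junb* (chr8:84974484-84978718, minus strand, 1 exon), which encodes a Jun protein with weaker activation that can oppose Jun, moved with *Jun*. Its normalized CPM were 2959, 3652 and 5040.5 in Dlx5CE-E12.5 cells, and 1425 and 1300.5 in Fgfr3CE-E12.5 cells. Again no library overlapped. The log2 fold change was -1.51 (SE 0.26, adjusted p = 0.00334), a 2.85-fold higher level in Dlx5CE-E12.5 cells. Its exons overlap those of *Prdx2* on the opposite strand over 7.52% of their bases, and *Prdx2* had a log2 fold change of 0.16 (adjusted p = 0.489).

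*Jund* (chr8:70698949-70700616, plus strand, 1 exon), which encodes the Jun protein that in most tissues is made steadily rather than on induction, went the other way. It had 37.3, 44.3 and 64.4 normalized CPM in Dlx5CE-E12.5 cells (893 to 1538 raw counts) and 656 and 884 in Fgfr3CE-E12.5 cells (38344 and 53244 raw counts). Both Fgfr3CE-E12.5 libraries lay far above every Dlx5CE-E12.5 library. The log2 fold change was 3.98 (SE 0.27, adjusted p = 8.18e-05), a 15.8-fold higher count in the Fgfr3CE-E12.5 libraries. It ranged from 3.06 to 4.24 over the alternatives tried that could test it.

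Features of the *Jund* locus bear on how this result can be read. An antisense gene, *Gm11175*, covers 52.6% of the exon bases of *Jund*. All exon bases of *Gm11175* lie within the exon of *Jund*. *Gm11175* had 0 counts in each of the 3 Dlx5CE-E12.5 libraries, and 8899 and 17904 in the Fgfr3CE-E12.5 libraries. Its counts come from bases that *Jund* also covers, so they are not a separate observation beside *Jund*. Without a known strand setting, reads of *Jund* and *Gm11175* may not have been separated. Over all features with at least 50% of their exon bases on an opposite-strand gene, 6 of 720 had 0 counts in every Dlx5CE-E12.5 library and at least 100 in each Fgfr3CE-E12.5 library, and 6 had the reverse. Over all 30046 features, 29 had the first pattern and 112 the reverse. Both patterns were thus more frequent among the overlapped features. The transcript of *Jund* has 67.1% GC, the highest of the 10 genes, and removing the GC trend lowered its log2 fold change to 3.21 (adjusted p = 0.000171). Of the 369 genes tested with over 25% of their exon bases overlapped on the opposite strand, *Fosl1* and *Jund* among them, 14.6% were called higher in Fgfr3CE-E12.5 cells and their median log2 fold change was -0.00. The part of overlap, read length and strand in the *Jund* difference was not tested.

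**Figure D2:**
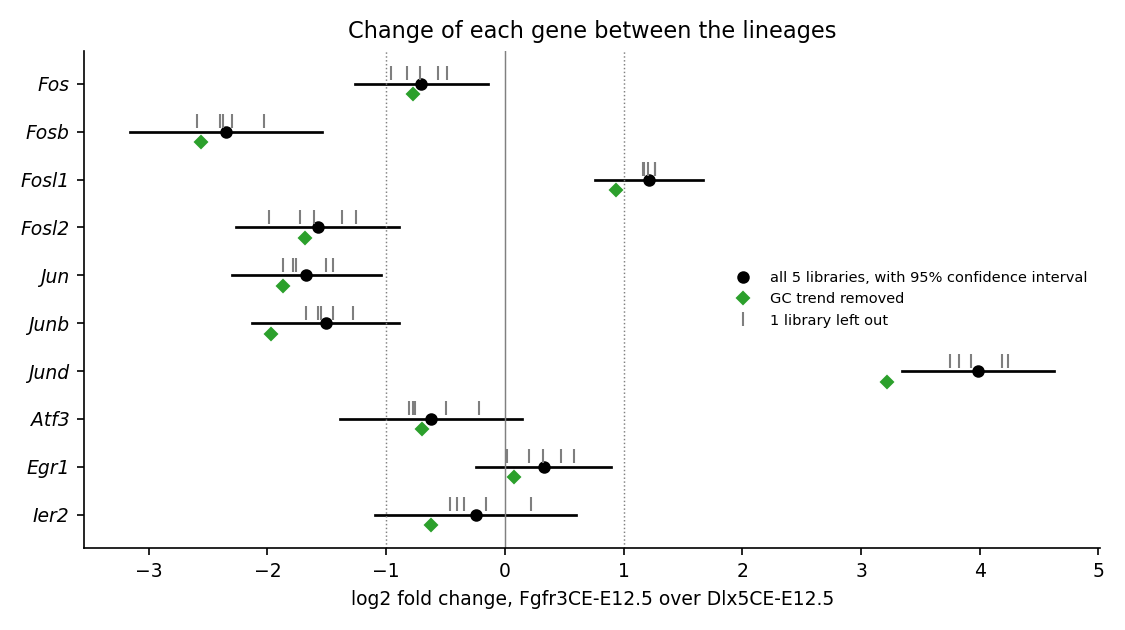
The log2 fold change of each gene, Fgfr3CE-E12.5 over Dlx5CE-E12.5, from the 5 libraries (black point, with its 95% confidence interval as a line), after removal of the GC trend (green diamond) and with each library left out in turn (grey ticks). Dotted lines mark the fold threshold of the calls, and a single tick of *Ier2*, without Dlx5CE-E12.5 replicate 3, lies on the other side of 0 from its black point.

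The subunits were next compared as shares of their family, on the scale of normalized CPM per kilobase of exon so that genes of different length could be set side by side. *Jund* held 0.948%, 0.979% and 1.00% of the summed Jun subunit level in Dlx5CE-E12.5 cells, and 29.0% and 34.5% in Fgfr3CE-E12.5 cells. *Junb* held 54.5%, 58.6% and 56.9% against 45.7% and 36.8%, and *Jun* 44.5%, 40.4% and 42.1% against 25.4% and 28.8%. As counted, the summed level was thus nearly all *Junb* and *Jun* in the Dlx5CE-E12.5 libraries, and spread over all 3 subunits in the Fgfr3CE-E12.5 libraries. Whether the cells themselves differ in this way depends on the count of *Jund* and was not tested. The difference for *Jund* was 30.7 percentage points (exact two-sided permutation test, p = 0.1), which is the smallest p that 3 against 2 libraries can give, and the values for *Jund* carry the overlap described above.

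Within the Fos family, *Fos* dominated every library, at 91.1%, 85.3% and 85.4% of the summed level in Dlx5CE-E12.5 cells and 94.7% and 93.5% in Fgfr3CE-E12.5 cells. The share of *Fosb* was 7.79%, 13.3% and 13.4% against 3.58% and 4.60%. *Fosl1* held 0.247% to 0.378% against 1.10% and 1.40%, and *Fosl2* 0.788% to 1.07% against 0.606% and 0.502%. Libraries of the lineages did not overlap for any of the 4 shares. The exact two-sided permutation p was 0.2 for *Fos*, *Fosb* and *Fosl2* and 0.1 for *Fosl1*, and no share can pass 0.05 in this design. The shares depend on the length scaling: as shares of normalized CPM without it, *Fos* held 79.0%, 68.1% and 68.2% against 88.0% and 85.8%, a difference of 15.1 percentage points in place of 6.85, and the difference of *Fosb* was -14.8 in place of -7.40. For *Junb* among the Jun subunits it was -8.32 in place of -15.5, and every share kept its direction.

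**Figure D3:**
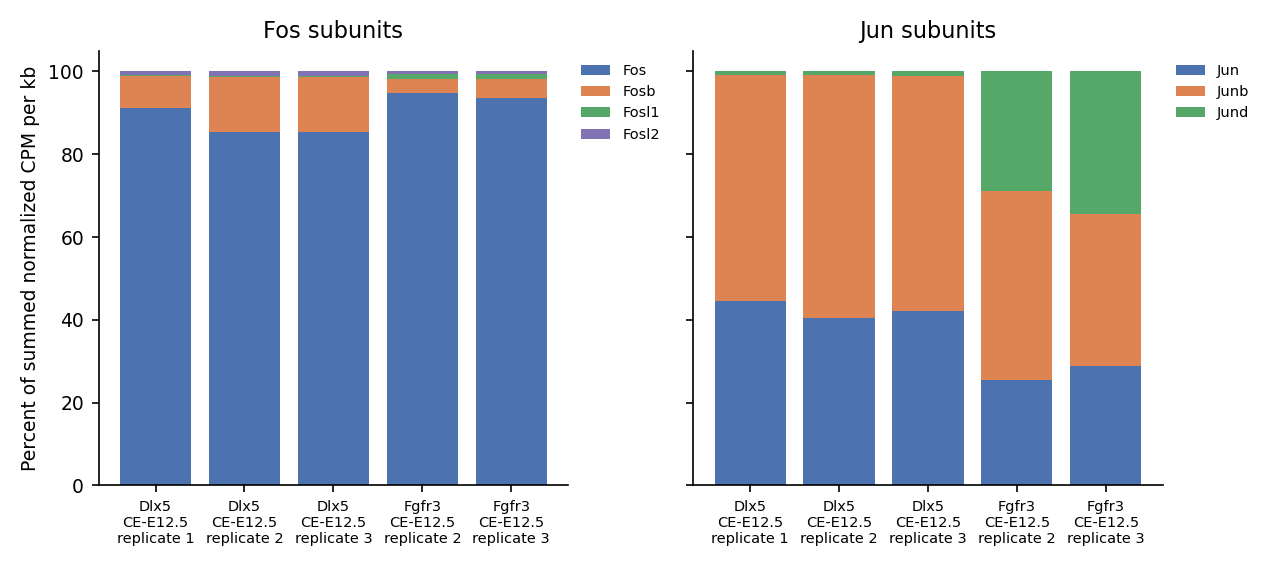
Share of each subunit in the summed level of its family (percent of normalized CPM per kilobase of exon), as stacked bars for each library, with Fos subunits on the left and Jun subunits on the right. *Jund* fills 0.948% to 1.00% of the Jun bars in the Dlx5CE-E12.5 libraries and 29.0% and 34.5% in the Fgfr3CE-E12.5 libraries, and *Fos* fills at least 85.3% of every Fos bar.

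The sum over each family was lower in Fgfr3CE-E12.5 cells in spite of *Jund*. The 4 Fos subunits summed to 4017, 3894 and 5580.0 normalized CPM in Dlx5CE-E12.5 cells, and to 2604 and 1918 in Fgfr3CE-E12.5 cells. The 3 Jun subunits summed to 6346, 7192 and 10279 against 3178 and 3596. The lineages did not overlap in either sum.

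The other immediate early genes of the set did not pass the test. *Atf3* (chr1:191170296-191218039, minus strand), a stress-induced bZIP protein that pairs with Jun proteins, had 156, 144 and 297 normalized CPM in Dlx5CE-E12.5 cells and 118 and 141 in Fgfr3CE-E12.5 cells. The libraries did not overlap, by a small margin between 144 and 141. Its log2 fold change was -0.62 (SE 0.32, adjusted p = 0.153, 95% confidence interval -1.39 to 0.14).

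*Egr1* (chr18:34859823-34864984, plus strand, 2 exons), a zinc finger factor of the same immediate early response, was abundant in all libraries, with 1424, 1185 and 1723 normalized CPM in Dlx5CE-E12.5 cells and 2162 and 1460.2 in Fgfr3CE-E12.5 cells. The ranges overlapped. Its log2 fold change was 0.33 (SE 0.24, adjusted p = 0.298, 95% confidence interval -0.24 to 0.89), which does not reach the log2 fold changes of *Fosb*, *Fosl2*, *Jun* and *Junb*.

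*Ier2* (chr8:84661331-84662852, minus strand, 1 exon), a short-lived nuclear regulator, had 390.1, 444 and 894 normalized CPM in Dlx5CE-E12.5 cells and 453 and 517 in Fgfr3CE-E12.5 cells. Both Fgfr3CE-E12.5 values lay between the lowest and highest Dlx5CE-E12.5 value. The log2 fold change was -0.25 (SE 0.36, adjusted p = 0.598, 95% confidence interval -1.09 to 0.60), and without Dlx5CE-E12.5 replicate 3 it was 0.22 (adjusted p = 0.43).

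Levels per kilobase of exon put the genes in a different order in the lineages. In Dlx5CE-E12.5 cells the order began with *Junb* at 1688 ± 461, *Fos* at 1365 ± 246 and *Jun* at 1256 ± 318 normalized CPM per kilobase (SD, n = 3), whose ranges overlapped. *Ier2* at 379 ± 182 and *Egr1* at 322 ± 60.2 came next and overlapped, then *Fosb* at 182 ± 69.4 and *Atf3* at 92.5 ± 39.4, also overlapping. *Jund* at 29.2 ± 8.42, *Fosl2* at 14.9 ± 3.66 and *Fosl1* at 4.70 ± 0.279 closed the order without overlap.

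In Fgfr3CE-E12.5 cells *Fos* led at 837 ± 194 normalized CPM per kilobase (SD, n = 2), followed by *Junb* at 592 ± 38.2. *Jund* at 461 ± 96.7, *Egr1* at 404 ± 111 and *Jun* at 393 ± 69.8 could not be ordered, since their ranges overlapped. *Ier2* at 319 ± 29.8 lay below *Jund* and *Jun*, but its range overlapped that of *Egr1*. *Atf3* at 60.0 ± 7.63, *Fosb* at 35.6 ± 1.73 and *Fosl1* at 10.9 ± 0.568 followed, and *Fosl2* was last, between 3.76 and 6.24. *Fosl1* was thus last in Dlx5CE-E12.5 cells and above *Fosl2* in Fgfr3CE-E12.5 cells.

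The libraries of a lineage were not alike in these genes. Dlx5CE-E12.5 replicate 3 was the highest of the 3 libraries for 9 of the 10 genes, *Fosl1* being the exception, whereas it was the highest for 30.7% of all genes tested. Its level over the mean of replicates 1 and 2 on the log2 scale was 2.15-fold for *Ier2*, 1.97-fold for *Atf3*, 1.78-fold for *Fosb*, 1.58-fold for *Jund*, 1.53-fold for *Junb* and 1.51-fold for *Jun*. It was 1.46-fold for *Fosl2*, 1.33-fold for *Egr1*, 1.31-fold for *Fos* and 0.992-fold for *Fosl1*. This comparison of libraries was chosen after their values were seen, and it is a description of those libraries.

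The same library stood high in several related lists. It was the highest Dlx5CE-E12.5 library for 19 of 22 other immediate early transcription factors, 24 of 25 other immediate early effectors, 12 of 17 feedback inhibitors and 10 of 14 heat shock genes. It was the highest for 11 of 22 other bZIP genes, 10 of 24 upstream kinases and SRF partners and 3 of 10 textbook AP-1 target genes, and for none of the 10 pan-leukocyte or 10 neutrophil markers tested. *Cebpd*, a bZIP gene of the acute phase response named after its values were seen, had 149 and 186 normalized CPM in replicates 1 and 2, 896 in replicate 3, and 433 and 465 in the Fgfr3CE-E12.5 libraries. Its log2 fold change was 0.13 (adjusted p = 0.898) with that library and 1.42 (adjusted p = 0.00244) without it. The 6 calls among the 10 genes were made with or without it, since leaving out Dlx5CE-E12.5 replicate 3 gave *Fosb* -2.03, *Fosl2* -1.37, *Jun* -1.45, *Junb* -1.28, *Fosl1* 1.21 and *Jund* 4.24 on the log2 scale.

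**Figure D4:**
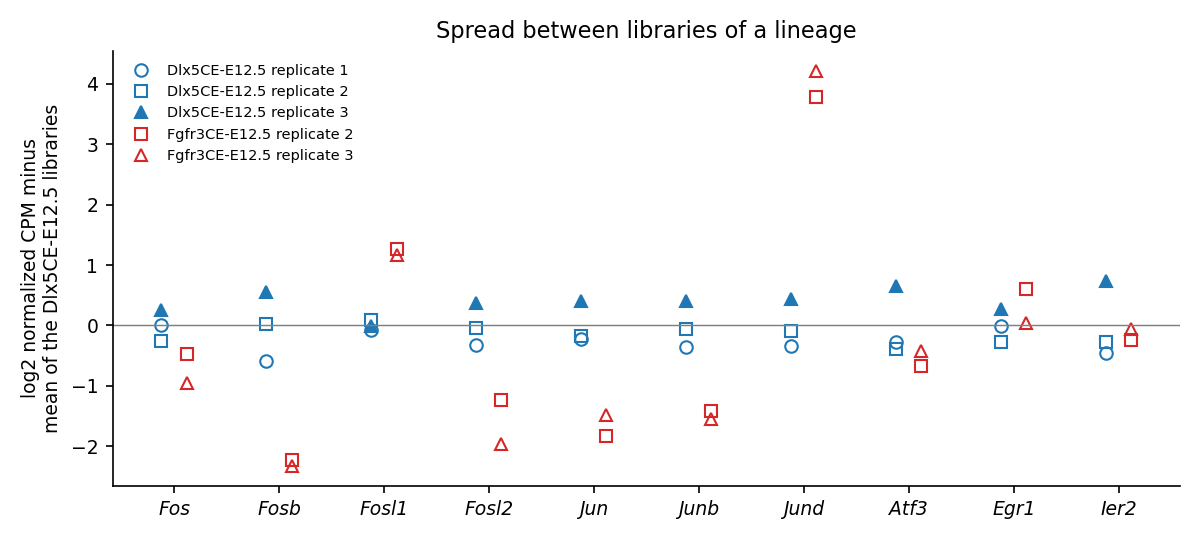
Log2 normalized CPM of each gene in each library, minus the mean of the Dlx5CE-E12.5 libraries, with Dlx5CE-E12.5 replicate 3 as a filled triangle. The filled triangle is the highest blue symbol for every gene but *Fosl1*, and the red symbols of *Fosb*, *Fosl2*, *Jun*, *Junb* and *Fos* lie below the blue ones.

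The pair of Fgfr3CE-E12.5 libraries did not differ in a single direction. Replicate 3 was above replicate 2 for 4 of the 10 genes, beside 48.5% of all genes tested. *Jund* was 1.35-fold, *Jun* 1.29-fold, *Atf3* 1.20-fold and *Ier2* 1.14-fold of its replicate 2 level, whereas *Fosl2* was 0.602-fold, *Egr1* 0.675-fold and *Fos* 0.718-fold. Leukocyte transcripts differed more between these libraries, as all 10 pan-leukocyte markers were higher in replicate 3. Whether blood cells contributed to the values of *Fos*, *Egr1* or *Jund* was not tested.

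Genes that followed a member most closely over the 5 libraries were found by the root mean square (RMS) difference of log2 normalized CPM after centring each gene on its own mean. *Junb* was closest to *Map3k8*, a kinase that activates the ERK pathway (RMS difference 0.103), then *Fscn1* (0.114) and the small Maf gene *Maff* (0.115). *Atf3* was closest to *Larp6* (0.104) and to the heat shock co-chaperone *Dnajb1* (0.136), and *Ier2* to *Nfatc1* (0.0855), *Ror2* (0.122) and the immediate early GTPase gene *Rhob* (0.155). *Jund* was closest to *Tspan33* (0.108), *Itgb5* (0.111) and *Dcun1d5* (0.128), which had log2 fold changes of 4.04, 3.92 and 3.94.

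For the remaining members, the closest genes were *Slc2a1* (RMS difference 0.0688) and *Col27a1* for *Fos*, *Foxo3* (0.0986), *Des* and *Apoe* for *Fosb*, *Ubfd1* (0.0359), *Ctsc* and *Zcchc24* for *Fosl1*, and *Zfp292* (0.0681), *Tgif2* and *Kcne4* for *Fosl2*. They were *Ppm1l* (0.0716), *Crtc3* and *B4galt5* for *Jun*, and *Aida* (0.0414), *Mgme1* and *Snx30* for *Egr1*. Between members, *Jun* and *Junb* (0.196) and *Fosl2* and *Junb* (0.196) were closest, followed by *Atf3* and *Ier2* (0.223). With 5 libraries, many genes lie near any pattern, and these names describe likeness in these libraries only.

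Partners and targets of AP-1 were described from lists written for the pathway, each by its counts and its median log2 fold change. Of 24 other bZIP genes, 22 were tested, 3 were called higher in Fgfr3CE-E12.5 cells and 4 higher in Dlx5CE-E12.5 cells, with a median of -0.20. *Cebpb*, a C/EBP factor of myeloid cells, adipocytes and osteoblasts that can pair with AP-1 proteins, had 2.37, 4.56 and 6.19 normalized CPM in Dlx5CE-E12.5 cells (69 to 148 raw counts) and 837 and 889 in Fgfr3CE-E12.5 cells. *Jdp2*, a repressor that pairs with Jun proteins, had 0.584, 0.942 and 1.88 against 94.4 and 102. Both passed the filter only through the Fgfr3CE-E12.5 libraries, and so had to differ. Their log2 fold changes were 7.63 (SE 0.40) and 6.45 (SE 0.40), and 6.86 and 6.22 with the GC trend removed. Exons of other genes overlap 20.7% of the exon bases of *Cebpb*, whose transcript has 67.2% GC. The third gene called higher in Fgfr3CE-E12.5 cells was *Creb3l1* (1.52), a regulator of collagen production in bone. The 4 called higher in Dlx5CE-E12.5 cells were *Atf5* (-3.01, which passed the filter only through the Dlx5CE-E12.5 libraries), *Atf7* (-1.88), *Bach1* (-1.64) and *Maff* (-1.47).

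Of 24 other immediate early transcription factors, 22 were tested, 3 were called higher in Fgfr3CE-E12.5 cells and 6 higher in Dlx5CE-E12.5 cells (median -0.29). The 3 were *Ier5l* (3.20, which passed the filter only through the Fgfr3CE-E12.5 libraries), *Klf2* (2.19) and *Ier5* (1.80). *Klf2*, a zinc finger factor induced by fluid shear in endothelium, had 30.0, 31.8 and 56.3 normalized CPM against 145 and 214. The 6 held all 3 members of the nuclear orphan receptor family Nr4a, at -1.53 for *Nr4a1*, -1.11 for *Nr4a2* and -1.56 for *Nr4a3*. *Csrnp1*, which encodes a nuclear protein of this response, had 177, 183 and 234 normalized CPM against 50.4 and 52.1 (log2 fold change -1.95, SE 0.17, adjusted p = 0.000227). *Maff* (-1.47) and *Irf1* (-1.14) were the others. The count of 6 was 3 without Fgfr3CE-E12.5 replicate 3 and 4 without Dlx5CE-E12.5 replicate 3, or when only library size was used for scaling. The calls of *Nr4a2*, *Nr4a3* and *Irf1* were lost without Fgfr3CE-E12.5 replicate 3, those of *Nr4a3* and *Irf1* also without Dlx5CE-E12.5 replicate 3, and that of *Nr4a3* without Dlx5CE-E12.5 replicate 1 (log2 fold changes of -0.97 to -2.57 for *Nr4a3*).

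All 25 other immediate early effectors were tested, of which 5 were called higher in Fgfr3CE-E12.5 cells and 8 higher in Dlx5CE-E12.5 cells (median -0.44). *Gadd45a*, a growth arrest gene, had 13.6, 9.32 and 19.7 normalized CPM against 77.5 and 91.7 (log2 fold change 2.57, SE 0.29, adjusted p = 0.000611). *Ccn2*, a matricellular protein gene, had 250.2, 403 and 552 against 2172 and 1822 (2.31, SE 0.32, adjusted p = 0.00127). *Mcl1* (1.95), *Plk3* (1.82) and *Btg1* (1.57) were the other 3. The call of *Plk3* was lost with the GC trend removed (adjusted p = 0.0744) and in each fit that left out a library other than Dlx5CE-E12.5 replicate 3, without which its log2 fold change was 2.83. On the Dlx5CE-E12.5 side, the kinase gene *Pim1* had 148, 169 and 258 normalized CPM against 23.1 and 41.9 (-2.56, SE 0.35, adjusted p = 0.00132). Exons of other genes overlap 19.1% of the exon bases of *Gadd45a*, 23.2% of those of *Ccn2* and 14.5% of those of *Pim1*. The cytokine gene *Il6* had 39.5, 45.8 and 90.5 against 16.0 and 6.13 (-2.41, SE 0.53, adjusted p = 0.00893), and the chemokine genes *Cxcl1* (-2.26) and *Ccl2* (-2.18) were called in the same direction. The call of *Ccl2* was lost without Dlx5CE-E12.5 replicate 3 (-1.70, adjusted p = 0.0798), Dlx5CE-E12.5 replicate 2 or Fgfr3CE-E12.5 replicate 3.

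Feedback inhibitors, which end the immediate early response by removing phosphate from MAP kinases, decaying its transcripts or blocking NF-kappaB, had the lowest median of these wider lists (-1.05). Of 17 tested, 9 were called higher in Dlx5CE-E12.5 cells and 4 in Fgfr3CE-E12.5 cells. *Nfkbia*, the NF-kappaB inhibitor, had 1295, 1235 and 1747 normalized CPM against 425 and 319 (log2 fold change -1.94, SE 0.24, adjusted p = 0.000801). *Spry2*, an antagonist of receptor tyrosine kinase signals, had 13.2, 12.8 and 16.9 against 1.59 and 0.930 (-3.50, SE 0.36), and passed the filter only through the Dlx5CE-E12.5 libraries. The RNA-decay gene *Zfp36* was at -1.29 and *Tnfaip3* at -1.86. The 4 on the Fgfr3CE-E12.5 side were the phosphatase genes *Dusp5* (2.74) and *Dusp2* (2.47), and *Spry1* (2.07) and *Spred1* (1.36). *Spry1* and *Spry2* were thus called in opposite directions. Exons of other genes overlap 22.1% of the exon bases of *Dusp5* and 24.4% of those of *Spry1*. They also overlap 55.9% of those of *Zfp36l1*, called higher in Dlx5CE-E12.5 cells (-1.20). *Dusp2* passed the filter only through the Fgfr3CE-E12.5 libraries, and the call of *Spred1* was lost without Fgfr3CE-E12.5 replicate 2 (0.94).

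Upstream of the members, 24 of 24 kinases and SRF partners were tested, and 8 were called higher in Fgfr3CE-E12.5 cells and 3 in Dlx5CE-E12.5 cells (median 0.25). *Srf*, whose product binds the serum response element of *Fos* and *Egr1*, had 3.84, 7.63 and 5.98 normalized CPM against 17.4 and 36.0 (4.61-fold), and passed the filter only through the Fgfr3CE-E12.5 libraries. *Rps6ka1*, which encodes the ERK-activated kinase RSK1, had 15.3, 15.5 and 17.5 against 87.0 and 179.7. *Mapk8*, which encodes the Jun kinase JNK1, had 109, 99.0 and 80.9 against 14.1 and 7.27 (-3.17, SE 0.32, adjusted p = 0.000384). *Map3k8* (-1.59) and *Mrtfb* (-1.10) were the others called higher in Dlx5CE-E12.5 cells. The count of 3 was 5 without Fgfr3CE-E12.5 replicate 2, and 2 without replicate 3, when *Mrtfb* was at -0.84. The median of the list was -0.00 with the GC trend removed.

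Of 16 textbook AP-1 target genes, 10 were tested, 5 were called higher in Fgfr3CE-E12.5 cells and 1 in Dlx5CE-E12.5 cells (median 1.03). The count of 1 was 2 without Dlx5CE-E12.5 replicate 2, Dlx5CE-E12.5 replicate 3 or Fgfr3CE-E12.5 replicate 2, and with the GC trend removed. *Mmp9*, a gelatinase gene also active in neutrophils and osteoclasts, had 72.1, 78.3 and 71.1 normalized CPM against 2617 and 2587 (log2 fold change 5.14, SE 0.16, adjusted p = 3.4e-05). *Plaur* had 12.9, 18.8 and 19.6 against 60.7 and 173 (2.77), and *Spp1* (2.61), *Mmp13* (1.98) and *Timp1* (1.42) followed. Exons of other genes overlap 18.75% of the exon bases of *Spp1*. Of the 6 targets called, 5 were higher in Fgfr3CE-E12.5 cells, in which *Fosb*, *Fosl2*, *Jun* and *Junb* were lower and *Fosl1* and *Jund* were higher. Called higher in that lineage too were all 10 neutrophil markers, 6 of 9 macrophage and osteoclast markers and 4 of 7 osteoblast markers. In the osteoblast list 1 marker was called the other way. The part of these cell types in the target values was not tested.

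Heat shock genes were taken as a marker of the response to tissue dissociation, and 14 of 14 were tested. In edgeR's quasi-likelihood test 0 were called higher in Fgfr3CE-E12.5 cells and 3 were called higher in Dlx5CE-E12.5 cells, namely *Hspb1* (-2.14), *Hspa8* (-1.67) and *Hspe1* (-1.05), with a median of -0.57. The call of *Hspb1* was lost without either Fgfr3CE-E12.5 library and that of *Hspe1* without Dlx5CE-E12.5 replicate 3. At an unadjusted p under 0.05 in that test, 6 were higher in Dlx5CE-E12.5 cells and 0 in Fgfr3CE-E12.5 cells. DESeq2's Wald test called 0 and 3, and edgeR's exact test 1 and 3. Their summed level was 12712, 9437 and 13619 normalized CPM in Dlx5CE-E12.5 cells and 7042 and 7244 in Fgfr3CE-E12.5 cells. *Hspa8* alone had means of 3808 and 1200 normalized CPM in Dlx5CE-E12.5 and Fgfr3CE-E12.5 cells, a large part of the gap in the sum. *Hspa1b* (94.5, 96.9 and 282 against 230.1 and 544) did not follow that order. *Hspa1a* was at -0.44, and at 0.22 without Dlx5CE-E12.5 replicate 3. The summed heat shock level was lower in Fgfr3CE-E12.5 cells, as were *Fosb*, *Fosl2*, *Jun* and *Junb*, and its part in their difference was not tested.

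**Figure D5:**
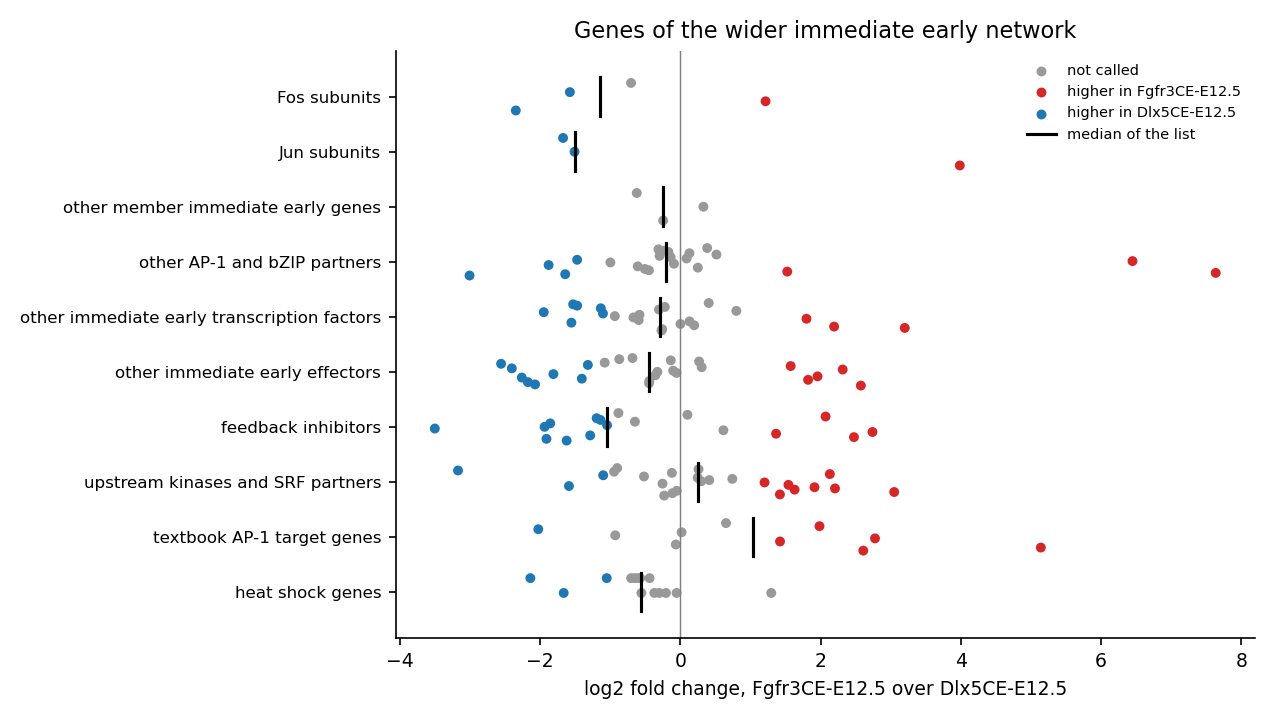
Log2 fold change, Fgfr3CE-E12.5 over Dlx5CE-E12.5, of every tested gene of each list, coloured by its call, with the median of the list as a black bar. The medians of the feedback inhibitors (-1.05) and heat shock genes (-0.57) lie left of 0 and that of the textbook AP-1 target genes (1.03) lies right of it, while every list but the heat shock genes and the uncalled member genes has calls on both sides.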

How the data were processed

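Bulk RNA-seq was analysed from 3 Dlx5CE-E12.5 and 2 Fgfr3CE-E12.5 libraries, grouped by their GEO labels. cDNA was made with a SMART-Seq kit and libraries by Nextera XT. The authors aligned reads to mm10, with reporter sequences added, by TopHat (TopHat2 2.0.13 and Bowtie2 2.2.1 in the submitters' processing notes, which also name HTSeq with no role given), and deposited raw counts per gene without normalization. Their depth-normalized and rlog files were not used here. Strand setting was not given in the sources used here, and reads carry no molecular identifiers.

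Symbols, gene types and exons came from GENCODE M21 on GRCm38, which matched 29996 of 30046 features (5 reporters and 45 others did not match). Protein-coding genes and reporters with at least 10 CPM in at least 2 libraries were fitted in edgeR 4.0.16 (R 4.3.3) with TMM and the quasi-likelihood test, and p-values were adjusted by Benjamini-Hochberg over all 10093 genes. Standard errors were derived from the F statistics. Normalized CPM used TMM-scaled library sizes. 3 counts corresponded to 0.0516 to 0.136 CPM, so the few libraries, rather than depth, set the precision. No 2 libraries agreed within sampling noise. On simulated counts for this comparison (10088 genes), 100 of 100 genes changed 4-fold and 100 of 100 changed 16-fold were called, with 9 unchanged genes. Smaller changes, such as those of *Fosl1*, *Fosl2*, *Jun* and *Junb*, were not simulated, so recovery at their size is not known. With a GC trend of a set size, not taken from these libraries, added to the simulated counts, 98 of 100 and 100 of 100 were called with 624 unchanged genes, and with that trend removed 9 unchanged genes were called.

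Members and lists were chosen with earlier results of these data known. Named were all 10 members, the 2 called genes of each list with the largest change in each direction and no overlap between lineages, list genes counted in small groups, and the 3 genes most like each member. Some genes named by this rule are not reported here. Alternatives were other scalings, edgeR's exact test, DESeq2 1.42.0, other filters, features and thresholds, the replicate number as a block, GC or length trends removed, and each library left out. Removal of both trends, and a fit to genes without exon overlap, were added after seeing the data.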

Additional observations from a re-analysis of the deposited data

How the results depend on the processing

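The calls of 2 genes higher in Fgfr3CE-E12.5 cells and 4 higher in Dlx5CE-E12.5 cells were obtained under DESeq2's size factors or Wald test, edgeR's exact test, library size alone, both looser filters, all features, removal of the length trend or of both trends, and in each fit that left out a library (2 to 2 and 4 to 4). Fewer were called under 4 settings. A test for a change above 2-fold (glmTreat) left 1 and 2 (*Fosl1* at an adjusted p of 0.235, *Fosl2* at 0.0669 and *Junb* at 0.0688 were lost). Removal of the GC trend left 1 in Fgfr3CE-E12.5 cells and 4 in Dlx5CE-E12.5 cells, as *Fosl1* fell to 0.93. An edgeR fit to genes without exon overlap gave 0 and 2, because *Fosl1*, *Jund*, *Jun* and *Junb* are not in it (0 and 3 at an unadjusted p under 0.05). By adjusted p alone 5 were higher in Dlx5CE-E12.5 cells, with *Fos*, whose adjusted p was 0.0938 with library size alone, 0.0532 over all features and 0.13 with the replicate block. *Egr1* turned from 0.33 to -0.047 when both the GC and the length trends were removed, and *Ier2*, at -0.25, lay between -0.46 and 0.22 with a library left out. The replicate block, using numbers 2 and 3 that the labels share, gave 2 and 4, and with the GC trend removed 1 and 4. The labels give no shared litter or batch, and deviations of same-numbered libraries correlated across genes at 0.13 and -0.05. Library size alone moved the median log2 fold change of all genes to 0.19, and the share of calls that were higher in Fgfr3CE-E12.5 cells from 55.6% to 65.0%. No member changed direction with it.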

Other observations

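Other cell type markers were described beside the same genes. Of 10 stromal reticular markers, 7 were called higher in Dlx5CE-E12.5 cells, with *Cxcl12* at -1.67 and *Lpl* at -1.45, and 1 (*Foxc1*, 2.82) higher in Fgfr3CE-E12.5 cells. *Lpl* lost its call without Dlx5CE-E12.5 replicate 1 or 2 or Fgfr3CE-E12.5 replicate 3. Of 7 osteoblast markers tested, 4 were called higher in Fgfr3CE-E12.5 cells, with *Col1a1* at 1.07, and 1 (*Phex*, -2.23) higher in Dlx5CE-E12.5 cells, while *Ibsp* was at 0.21 (adjusted p = 0.565). The 4 were 2 without Dlx5CE-E12.5 replicate 3 or with the GC trend removed, and *Col1a1* also lost its call without Dlx5CE-E12.5 replicate 2 or Fgfr3CE-E12.5 replicate 3 (0.49). *Col2a1*, the cartilage collagen gene, had 7.38, 3.32 and 0.795 normalized CPM in Dlx5CE-E12.5 cells and 2733 and 361 in Fgfr3CE-E12.5 cells. The chondrocyte factor gene *Sox9* was at -0.69 (adjusted p = 0.0535).

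Macrophage and osteoclast markers had 6 of 9 called higher in Fgfr3CE-E12.5 cells, with *Acp5* at 2.07, while *Ctsk* was at -0.05 (4 were called without Dlx5CE-E12.5 replicate 1 or 3 or Fgfr3CE-E12.5 replicate 3). *Ebf1*, listed with the B lineage, had 735, 804 and 790 normalized CPM in Dlx5CE-E12.5 cells and 403 and 199 in Fgfr3CE-E12.5 cells. *Cd79a* of the same list had 85.5, 35.0 and 31.4 against 73.5 and 141. Whether the *Ebf1* transcripts came from B lineage or stromal cells was not tested. B lineage markers had 2 of 7 called higher in Fgfr3CE-E12.5 cells and 1 (*Ebf1*, -1.37) lower. The 2 were 6 without Dlx5CE-E12.5 replicate 1 or with the replicate block, 4 in edgeR's exact test or DESeq2's Wald test, and 1 without Dlx5CE-E12.5 replicate 2 or Fgfr3CE-E12.5 replicate 3, and *Ebf1* lost its call without the latter. Erythroid markers had 2 of 9 called higher in Dlx5CE-E12.5 cells, with *Hba-a1* at -1.18, which lost its call without Dlx5CE-E12.5 replicate 1 or 3 or Fgfr3CE-E12.5 replicate 2. Mural markers had 3 of 6 called higher in Fgfr3CE-E12.5 cells and 1 (*Des*, -2.45) lower, the latter passing the filter only through the Dlx5CE-E12.5 libraries. Endothelial markers summed to 39.8 to 65.0 normalized CPM in Dlx5CE-E12.5 cells and to 51.2 and 69.6 in Fgfr3CE-E12.5 cells, and neither of the markers tested, *Plvap* and *Pecam1*, was called (at an unadjusted p under 0.05, 1 was).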
